A study of Ovis aries with 41 samples.

Results

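Skin of the tail tip was compared with skin of the tail base in 4 adult rams that carried 2 ancestral alleles of HOXB13 (A/A). These were the libraries of rams 835507, 871772, 871784 and 871932, 2 from each ram and position, so 16 of the 41 libraries in the series formed the comparison, and all genes with enough counts were described. The rams belonged to the Improved Jezersko Solčava breed, a wool sheep of Slovenia, and none carried the derived allele (D), an insertion in the HOXB13 promoter that distinguishes the D/D rams of the same breed. Biopsies were punched from shorn skin after slaughter, at the first caudal vertebra for the base, halfway along the tail for the mid-tail, and close to the distal end for the tip. Base and tip came from the same animal, and the tip against base values below are therefore changes within rams. No treatment was given. The p-values rest on the spread of position changes within rams of 1 breed, after differences in level between rams are removed. That spread is pooled over all positions and both genotypes, so it is not that of the 4 A/A rams alone.

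Ovine tail skin holds an epidermis, a collagen-rich dermis and dense wool follicles with their sebaceous and sweat glands. Dermal fibroblasts keep a record of body position in the HOX genes they express, and the dermal papilla, a cluster of specialised fibroblasts at the base of the follicle, exchanges Wnt, hedgehog, BMP and FGF signals with the keratinocytes around it. Adventitial fibroblasts, mast cells and resident macrophages lie in the looser connective tissue around vessels. In whole skin, fewer cells of a type and less RNA per cell cannot be told apart.

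Totals ran from 9996782 to 16083735 counts in the 8 libraries of the base and from 9381400 to 23431409 in the 8 of the tip, and both libraries from 1 ram and position were added together. Levels are counts scaled to depth (CPM) with TMM factors, and the 4 values of a gene are listed in the order of the rams above. Markers of skin were high at every position. KRT1, a keratin of differentiating epidermis, lay between 2345 and 17208 CPM, and COL1A1, the main collagen of the dermis, lay between 443 and 9968 CPM.

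The tip of ram 835507 stood apart. Its summed level of 12 inner root sheath genes, which mark the growing wool follicle, was 1170 and 1410 CPM in its pair of tip libraries against 10100 to 17900 CPM in the other 6 tip libraries. FOXN1, a transcription factor of the growing hair shaft, was at 20.7 CPM there against 383, 439 and 417 CPM at the other tips, and COL1A1 was at 443 CPM against 5475, 3927 and 5267 CPM. The sum of 19 smooth muscle genes was 5039 CPM at that tip against 1630.2 to 2338 CPM at the other 3, and that of the skeletal muscle genes was 646 CPM against 145 to 237 CPM. Sebaceous and adipocyte sums of this ram were above those of the other 3 rams at both the base and the tip. Its mid-tail also had a low inner root sheath sum, 2958 CPM against 10648 to 13307 CPM in the other 3 rams. The wool shaft sum at the mid-tail was 1702 CPM against 8724 to 13484 CPM. Values without this ram are given beside several of the results.

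A set of 317 genes differed between tip and base at an adjusted p under 0.05, which was 1.63% of the 19444 genes that entered the edgeR quasi-likelihood test with Benjamini-Hochberg adjustment. In what follows, rose and fell are used of these genes alone. At the tip, 164 genes rose (0.843% of those tested) and 153 fell (0.787%). The median log2 fold change was 1.32 among genes that rose and -1.45 among genes that fell, against -0.01 over all genes tested. All 4 rams moved in the same direction in 160 of the genes that rose and in 151 of those that fell. The 4 values of the tip lay wholly above the 4 of the base for 74 of the genes that rose and wholly below for 68 of those that fell, and such a gap was found in 2.99% of all genes tested. The test that picked these genes used the same values, which by itself favours a shared direction and a gap. These counts are therefore description only, and the share with 1 direction over all genes tested is not given. The stricter call, an adjusted p of at most 0.01 with an absolute log2 fold change over 1, held for 57 genes (0.293%).

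**Figure D1:**
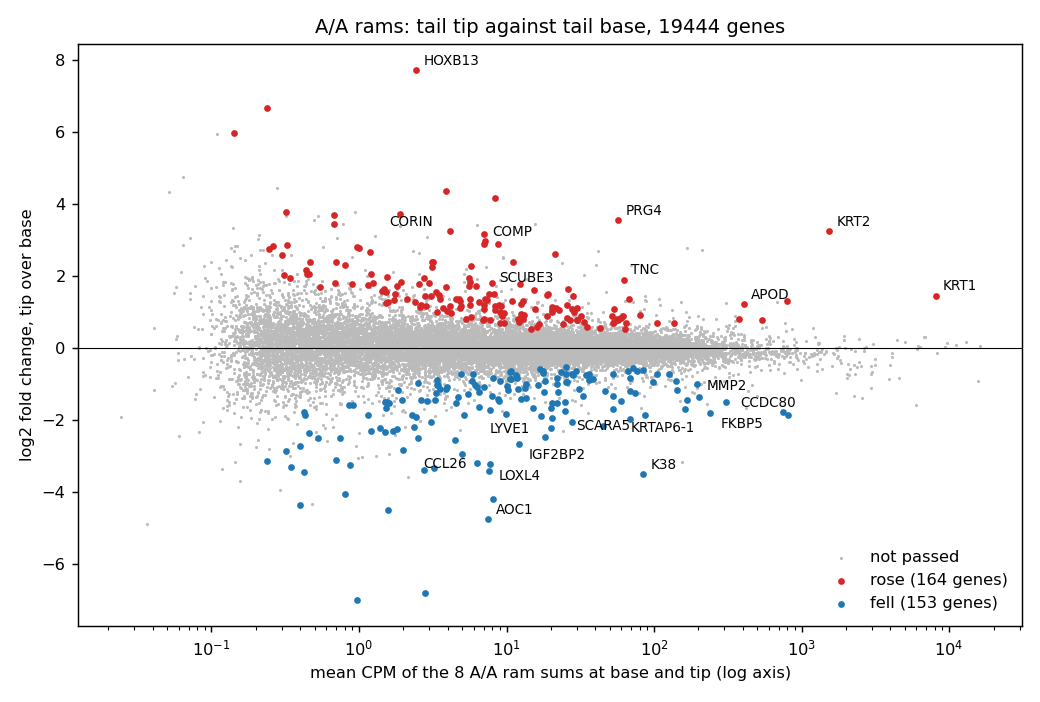
Log2 fold change of the A/A tip over the base (vertical axis) against the mean level in CPM of the 8 ram sums (horizontal log axis) for 19444 genes. Red points are the 164 genes that rose and blue points the 153 that fell, and both colours span the range from under 1 CPM to over 100 CPM.

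Genes that passed came from all levels. Of the genes that rose, 22 had a mean under 1 CPM, 63 a mean of at least 10 CPM and 8 a mean of at least 100 CPM, and among the genes that fell these counts were 17, 77 and 12. In all, 12.3% of the genes that passed had a mean under 1 CPM, against 18.7% of all genes tested, and 6.31% against 9.05% had a mean of at least 100 CPM. The median change of the genes that rose was 0.94, 1.06, 0.81 and 1.21 in the 4 rams on the log2 scale. For the genes that fell, the corresponding medians were -1.10, -1.13, -0.91 and -1.19. The genes were picked by a test on these same rams, which by itself favours similar medians. The counts depended on which ram was left out. With ram 871932 left out 68 genes passed at an adjusted p under 0.05 and 3 were called strictly, with ram 871772 left out 128 and 13, with ram 835507 left out 259 and 53, and with ram 871784 left out 286 and 44. Of the original 317 genes, 64, 108, 161 and 194 passed again in these 4 fits.

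For most of these genes the mid-tail of the same rams had a mean between those of the base and the tip. Its mean CPM lay between the 2 ends for 153 of the 164 genes that rose and for 142 of the 153 that fell. The genes were picked for a difference between tip and base in these rams, which by itself favours such an order. The share over all genes tested is not given. Against the base, which both comparisons share, the mid-tail had a median log2 fold change of 0.86 for the genes that rose at the tip and -0.72 for those that fell. Tested on their own, 5 genes differed between mid-tail and base at an adjusted p under 0.05, and 0 between tip and mid-tail with edgeR, where 787 had an unadjusted p under 0.05.

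**Figure D2:**
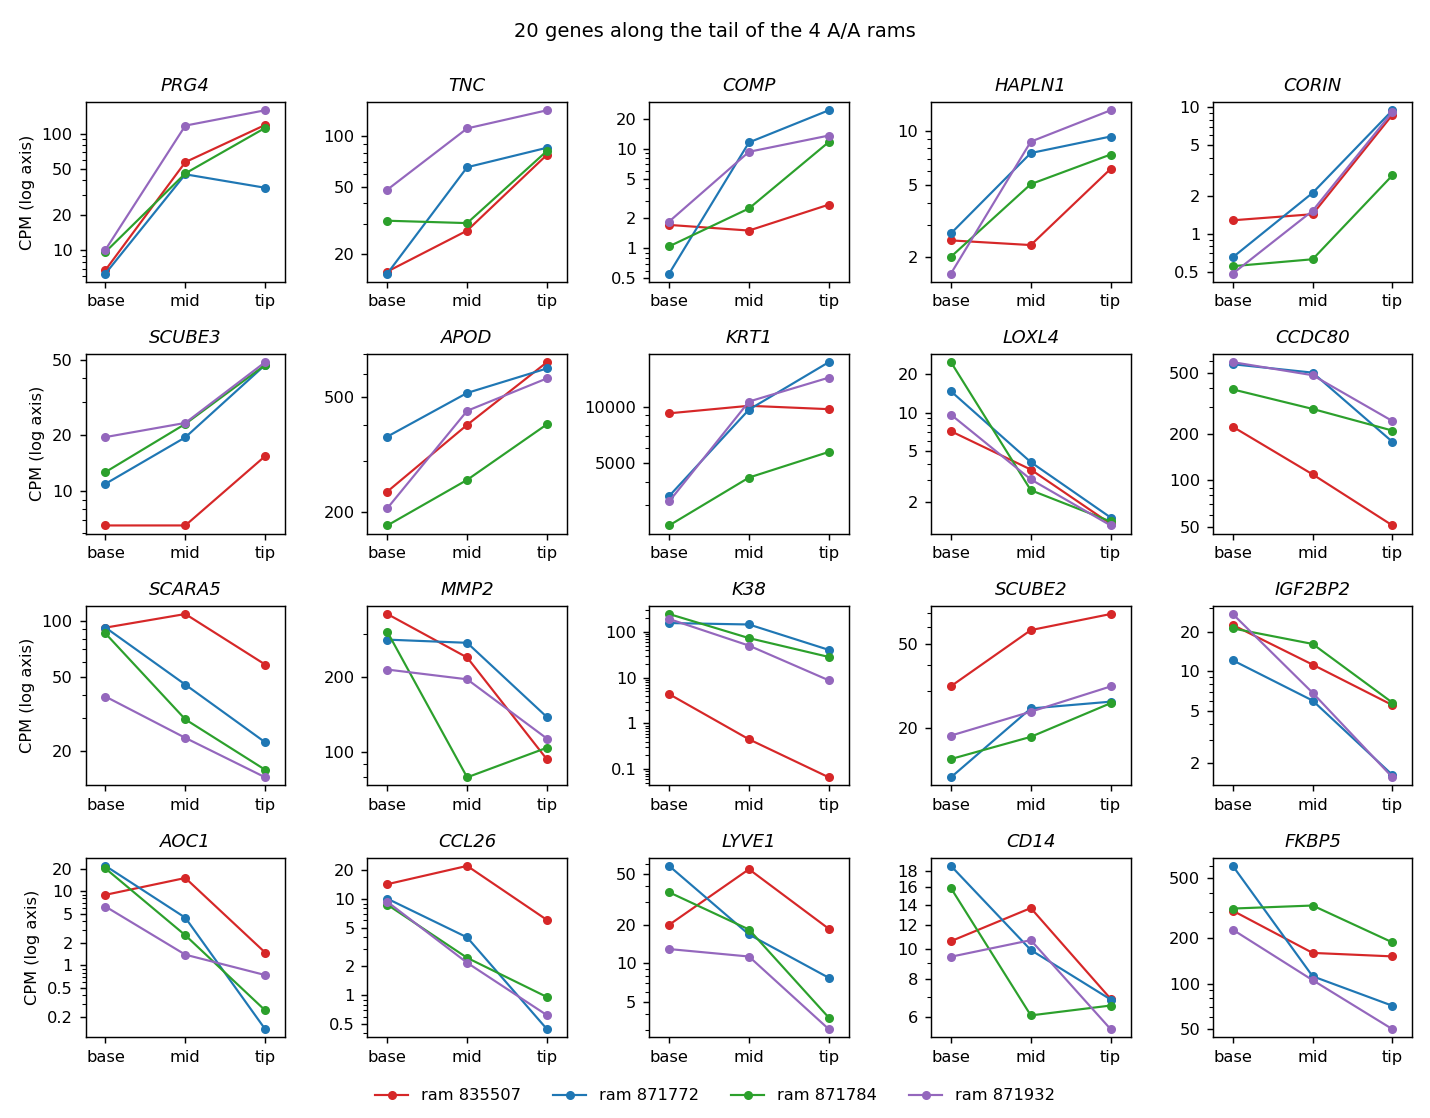
CPM (log axis) of 20 genes at the base, mid-tail and tip of each A/A ram, with 1 line per ram. PRG4, TNC, CORIN and APOD were higher at the tip than at the base in all 4 rams, LOXL4, CCDC80 and IGF2BP2 were lower in all 4, and K38 ran far lower in ram 835507 than in the others.

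Most tested genes at the posterior end of the HOX clusters rose at the tip. Of 10 tested HOX genes of paralog groups 10 to 13, 6 rose, 0 fell and 4 did not pass, with a median log2 fold change of 1.35. Their summed CPM, to which abundant members contribute most, had no common direction and changed by -0.56, 0.01, 0.16 and -0.13 on the log2 scale. HOXB13 itself had 2 reads at the base and 587 at the tip over all 4 rams, a ratio of 255 after scaling for depth with a 95% counting interval of 70.2 to 2108. HOXA13, the most posterior gene of its cluster, went from 1.24, 1.49, 0.432 and 0.93 CPM at the base to 7.26, 4.4, 2.94 and 6.15 CPM at the tip, without overlap. Its log2 fold change was 2.39 ± 0.33 (SE, adjusted p = 0.00284). HOXC10 held nearly the same levels in all rams, 3.26 to 4.29 CPM at the base and 9.71 to 12.8 CPM at the tip, with a log2 fold change of 1.49 ± 0.19 (SE, adjusted p = 0.00174). Of 24 tested HOX genes of groups 1 to 9, 3 rose (HOXA5, HOXA6 and HOXA9, with log2 fold changes of 0.79, 1.16 and 0.88), 0 fell and 21 did not pass, and their median was 0.30. The adjusted p of these 3 genes reached 0.133, 0.0993 and 0.158 with 1 ram left out, and those of HOXA11 and HOXC11 reached 0.124 and 0.0789, while HOXB13, HOXA13, HOXC10 and HOXA10 stayed at or under 0.049.

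The HOX rises came from stretches of the genome where long noncoding genes moved too. On chromosome 4 of ARS-UI_Ramb_v3.0, 7 genes between positions 70422486 and 70505523 rose, namely HOXA13, HOXA11, HOXA10, HOXA9, HOXA6, HOXA5 and the unnamed LOC105606592. LOC105606592 was at 0.353, 0.373, 0.0617 and 0.607 CPM at the base and at 1.19, 2.24, 1.52 and 3.14 CPM at the tip. It spans 70433489 to 70437337 and so overlaps HOXA13, which spans 70422486 to 70435575. How reads of the overlap were assigned was not tested, so the pair may not be separate observations. On chromosome 3, between 132437092 and 132552876, HOXC10, HOXC11 and LOC105611004 rose and LOC105611012 fell. LOC105611012 was the exception in direction, with 2.6, 1.44, 1.73 and 1.7 CPM at the base and 1.33, 0.0277, 0.603 and 0.165 CPM at the tip. On chromosome 11, HOXB13 and LOC105608416, which lies between HOXB4 and HOXB2, both rose, the latter from a mean of 5.38 ± 3.35 to 11.2 ± 7.79 CPM (SD, n = 4). With 1 ram left out, the adjusted p reached 0.0655 for LOC105606592, 0.143 for LOC105611004, 0.214 for LOC105611012 and 0.0555 for LOC105608416. The LOC genes of this paragraph, HOXA10, HOXA11 and HOXC11 were chosen after their values were seen. The kit marks strand and counts were made per strand, but reads of copies alike in sequence could still be split between genes.

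Among 37 transcription factors of limb and appendage development, 4 rose, 2 fell and 31 did not pass (median 0.24, and 0.09 without ram 835507). TBX3, a T-box factor of limb and skin appendage patterning, had 10.5, 7.55, 5.0 and 7.12 CPM at the base and 17.4, 23.3, 17.9 and 14.1 CPM at the tip. Each tip value lay above each base value, and the log2 fold change was 1.30 ± 0.17 (SE, adjusted p = 0.00176). TWIST1, a mesenchymal bHLH factor, rose by 0.97 ± 0.20 on the log2 scale (SE, adjusted p = 0.028). TBX4 (1.94) and TBX18 (1.07) also rose. SP9, a zinc finger factor of limb ectoderm, fell from 2.12, 1.26, 1.05 and 0.728 CPM to 1.36, 0.277, 0.213 and 0.248 CPM, a log2 fold change of -1.60 ± 0.35 (SE, adjusted p = 0.0319), and DLX1 fell as well (-1.29). TBX3 kept an adjusted p of at most 0.0174 with any 1 ram left out, and those of TWIST1, TBX4, TBX18, SP9 and DLX1 reached 0.143 to 0.308. TBX4, TBX18 and DLX1 were chosen after their values were seen.

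On chromosome 17 TBX3 lay among 3 unnamed noncoding genes that also passed the test, in a stretch from 59340214 to 60345829. LOC132658009 had 0 reads in every base library and 58 reads at the tip over the 4 rams, or 0.83, 0.47, 0.284 and 0.33 CPM. LOC121816955 rose from 1.28, 0.559, 0.247 and 0.243 CPM to 2.82, 1.72, 1.49 and 0.825 CPM, and LOC105602898 fell from 0.706, 6.43, 2.5 and 2.22 CPM to 0.497, 1.47, 0.957 and 0.908 CPM. LOC121816955 ends at 60164846, inside TBX3, which spans 60162178 to 60176145, and how reads of this overlap were assigned was not tested. LOC132658009 was present in only 2 of the 4 fits that left out a ram, with an adjusted p of at most 0.049. Its counts were too low for the filter in the others, among them the fit without ram 835507. With ram 871932 left out, the adjusted p was 0.0854 for LOC121816955 and 0.149 for LOC105602898. These 3 genes were chosen after their values were seen, and their levels of a few CPM or less rest on few reads.

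Most genes of tendon, cartilage and joint matrix had higher values at the tip, but few passed. Of 22 tested members, 4 rose, 0 fell and 18 did not pass, 18 had a positive log2 fold change, and the median was 0.51. The list's summed CPM was higher at the tip in all 4 rams. It went from 435, 508, 481 and 307 CPM to 669, 558, 533 and 617 CPM. In ram 871784 PRG4 alone, at 9.72 and 112 CPM, changed by more than the whole sum, so the other members together were lower there. The sum without the genes that rose is not given. PRG4, which encodes the joint lubricant lubricin, had 6.8, 6.34, 9.72 and 10.2 CPM at the base and 119, 34.4, 112 and 159 CPM at the tip. Even its lowest tip value was above every base value, and the log2 fold change was 3.55 ± 0.44 (SE, adjusted p = 0.00174). COMP, a pentameric matrix protein of cartilage and tendon, went from 1.72, 0.559, 1.05 and 1.86 CPM to 2.75, 24.3, 11.7 and 13.6 CPM, again without overlap (2.96 ± 0.57, SE, adjusted p = 0.0173). The link protein gene HAPLN1, which ties hyaluronan to proteoglycans, went from 2.47, 2.7, 2.01 and 1.62 CPM to 6.17, 9.32, 7.41 and 13 CPM (1.95 ± 0.36, SE, adjusted p = 0.013). TNMD, tenomodulin, rose within each ram, from 0.177, 2.94, 0.802 and 0.971 CPM to 0.696, 6.36, 2.84 and 7.14 CPM, although the ranges of base and tip overlapped (1.95 ± 0.36, SE, adjusted p = 0.015). Whichever ram was left out, PRG4 stayed at an adjusted p of at most 0.0235, and the values of COMP, HAPLN1 and TNMD reached 0.122, 0.105 and 0.161 without ram 871932.

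The matricellular and elastic fibre genes split by member. Of 43 tested, 4 rose (TNC, THBS1, THBS4 and LTBP2), 4 fell (LOXL4, MATN4, TNXB and EMILIN2) and 35 did not pass, and the median was -0.04. The tenascins moved in opposite directions. TNC, tenascin C, had 15.7, 15.3, 31.5 and 48.2 CPM at the base and 77.8, 85.6, 82.0 and 143 CPM at the tip, while TNXB, tenascin X, had 117, 119.6, 185 and 102 CPM at the base and 73.4, 37.2, 28.4 and 27.3 CPM at the tip. Both pairs of groups were apart, with log2 fold changes of 1.90 ± 0.27 (SE, adjusted p = 0.00284) and -1.86 ± 0.36 (SE, adjusted p = 0.0173). The thrombospondins THBS1 and THBS4 rose, THBS1 from 272 ± 57.3 to 479 ± 112 CPM and THBS4 from 19.3 ± 6.36 to 41.2 ± 13.3 CPM (SD, n = 4). LTBP2, which binds fibrillin microfibrils, rose from 42.0 ± 6.79 to 72.2 ± 13.3 CPM (SD, n = 4).

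Among the matrix genes that fell, LOXL4 and EMILIN2 had nearly 1 level at all 4 tips. LOXL4, a lysyl oxidase that crosslinks collagen, ranged from 7.15 to 24.7 CPM at the base but only from 1.32 to 1.52 CPM at the tip (-3.23 ± 0.40, SE, adjusted p = 0.00174). EMILIN2, an elastin microfibril interfacer, had 24.1, 29.3, 23.8 and 24.2 CPM at the base and 10.2, 11.2, 11.3 and 10.4 CPM at the tip (-1.23 ± 0.19, SE, adjusted p = 0.00371). MATN4, matrilin 4, fell from 4.06, 3.82, 5.95 and 3.2 CPM to 0.332, 0.581, 1.35 and 0.867 CPM (-2.50 ± 0.33, SE, adjusted p = 0.00191). No tip value of these 3 genes reached a base value. LOXL4, EMILIN2, MATN4, TNC and THBS4 kept an adjusted p of at most 0.0423 with any 1 ram left out, and TNXB, THBS1 and LTBP2 reached 0.124, 0.225 and 0.149 without ram 871932. THBS4, LTBP2, TNXB and EMILIN2 were chosen after their values were seen.

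Collagen genes did not move as 1 group. Of 39 tested, 4 rose (COL6A5, COL15A1, COL19A1 and COL24A1), 0 fell and 35 did not pass, and the median was 0.28. The summed level of the same genes was nevertheless lower at the tip in all 4 rams, by 1.77, 0.50, 1.02 and 0.32 on the log2 scale, so the sign of the sum was opposite to that of the median. Scaled to library totals, the pairs of base libraries had 12200 and 14900, 17400 and 22300, 14800 and 29600, and 13000 and 20500 CPM. The pairs of tip libraries had 4780 and 4740, 20200 and 9930, 12600 and 8970, and 11800 and 13600 CPM. In library number 1, ram 871772 was thus higher at the tip. The most abundant fibrillar genes were lower at the tip in each ram. COL1A1 had 5319.7, 8517, 9968 and 8397 CPM at the base and 443, 5475, 3927 and 5267 CPM at the tip, and COL3A1, its partner in fine fibrils, had 2506, 4298, 4267 and 2809.6 CPM at the base and 294, 2304, 1729.8 and 2212 CPM at the tip. Neither gene passed (log2 fold changes of -1.59 and -1.39, adjusted p = 0.0976 and 0.0826), and without ram 835507 the values were -0.92 and -0.85. COL15A1, a collagen of basement membrane zones, rose from 80.2 ± 22 to 130.5 ± 32.8 CPM (SD, n = 4), and COL6A5, of the beaded microfibril family, from 3.07 ± 1.67 to 9.32 ± 4.43 CPM (SD, n = 4). COL19A1 and COL24A1, both minor collagens, had log2 fold changes of 1.8 and 1.37. The adjusted p of the 4 collagens that rose reached 0.0824 to 0.206 with 1 ram left out. COL24A1 was chosen after its values were seen.

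Of 14 general fibroblast genes, 0 passed the test in either direction (median -0.14), and their sum was lower at the tip in all 4 rams, by 1.03, 0.63, 1.09 and 0.29 on the log2 scale. Of the 16 members of the adventitial fibroblast list 1 rose, 4 fell and 11 did not pass, 2 had a positive log2 fold change, and the median was -0.60. Their sum had no common direction and changed by 0.28, -0.26, -0.39 and 0.28 on the log2 scale. SCARA5, a ferritin receptor of these cells, had 91.7, 91.8, 85.4 and 39.1 CPM at the base and 58.1, 22.2, 15.8 and 14.4 CPM at the tip (-1.69 ± 0.24, SE, adjusted p = 0.00284). DPP4, a surface dipeptidyl peptidase, had 55.7, 74.0, 76.7 and 84.1 CPM at the base and 11.1, 30.3, 47.7 and 39.9 CPM at the tip (-1.34 ± 0.22, SE, adjusted p = 0.00609). DPP4 was lower in every tip than in every base, whereas for SCARA5 the tip of ram 835507 lay above the base of ram 871932. PI16, a defining marker of adventitial fibroblasts, fell from 96.5, 162, 137 and 38.2 CPM to 59.3, 33.3, 38 and 33.4 CPM, and GFPT2, an enzyme of the hexosamine pathway, from 30.5, 40.0, 43.6 and 11.6 CPM to 19.2, 9.07, 4.15 and 5.41 CPM.

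The exception in the adventitial list was APOD, the lipocalin apolipoprotein D. It had 236, 364, 180.2 and 206 CPM at the base and 657, 625, 402 and 578 CPM at the tip, without overlap, and a log2 fold change of 1.22 ± 0.17 (SE, adjusted p = 0.00284). CCDC80, a matrix-bound protein abundant in fibroblasts, was among the most abundant genes that fell. Its levels were 224, 572, 392 and 591 CPM at the base and 50.9, 178, 211 and 244 CPM at the tip (-1.49 ± 0.22, SE, adjusted p = 0.0033). SCARA5, DPP4, APOD and CCDC80 kept an adjusted p of at most 0.03 in each fit with 1 ram left out (0.0248, 0.03, 0.0299 and 0.0299 at most), and PI16 and GFPT2 reached 0.127 and 0.0976 without ram 871772. PI16 and GFPT2 were chosen after their values were seen.

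Matrix-degrading enzymes were split between the ends of the tail. Of 40 metalloproteases and inhibitors, 2 rose, 2 fell and 36 did not pass (median -0.20), and the sum was lower at the tip in all 4 rams, by 0.49, 0.50, 0.66 and 0.35 on the log2 scale. MMP2, gelatinase A, had 359, 284, 305 and 215 CPM at the base and 93.8, 139, 105 and 114 CPM at the tip, without overlap (-1.37 ± 0.27, SE, adjusted p = 0.021). ADAMTS2, which removes the N-propeptide of procollagen, fell from 30.9 ± 7.34 to 13.9 ± 4.99 CPM (SD, n = 4). MMP7, matrilysin, was the opposite case, with 4.15, 2.33, 3.86 and 4.69 CPM at the base and 8.39, 14.4, 5.56 and 8.95 CPM at the tip (1.29 ± 0.27, SE, adjusted p = 0.0278). ADAMTS6 rose with a log2 fold change of 1.03 and was chosen after its values were seen, as was HTRA3, a secreted serine protease outside the list, which fell from 43.0 ± 6.54 to 19.3 ± 0.989 CPM (SD, n = 4). With 1 ram left out, the adjusted p of these 5 genes reached 0.0787 for MMP2, 0.109 for ADAMTS2, 0.104 for MMP7, 0.199 for ADAMTS6 and 0.245 for HTRA3.

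**Figure D3:**
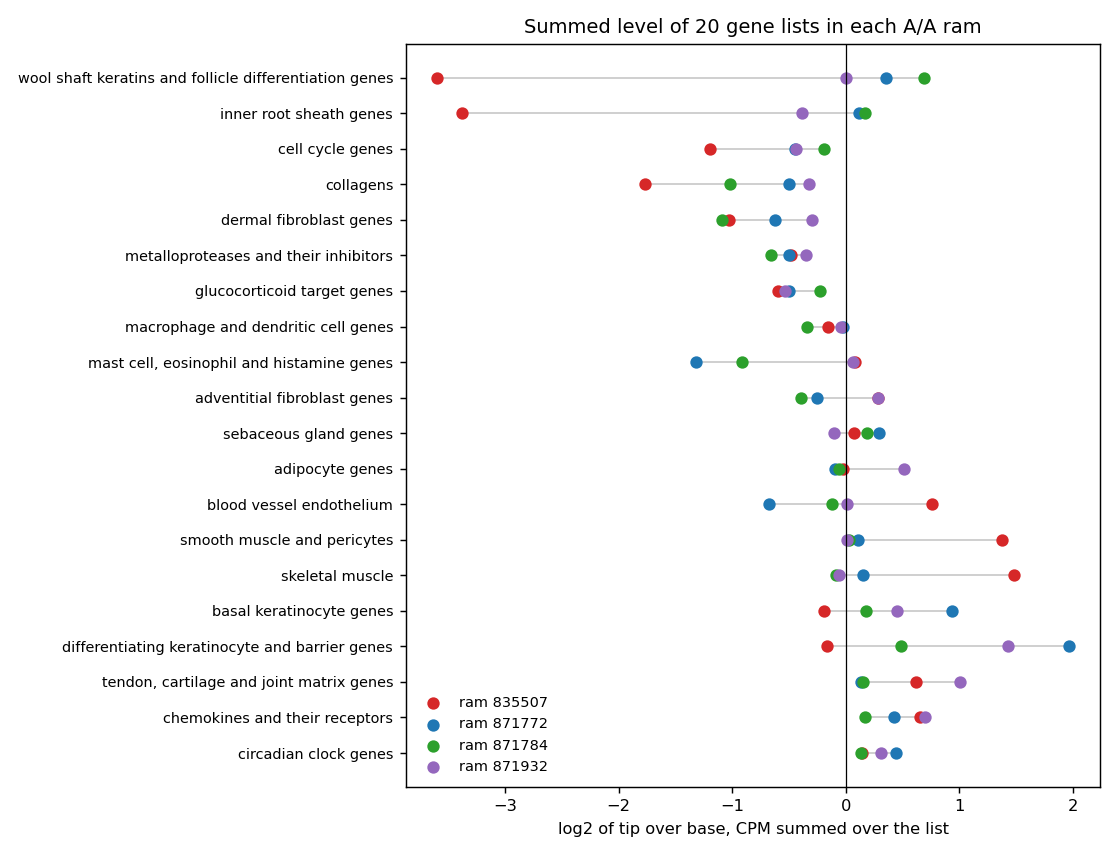
Log2 ratio of tip over base for the CPM summed over each of 20 gene lists (horizontal axis), with 1 point per A/A ram. The wool shaft and inner root sheath sums of ram 835507 lie at -3.60 and -3.38, far from the other 3 rams, while the collagen, fibroblast, metalloprotease and glucocorticoid target sums lie below 0 in all 4 rams.

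Of the dermal papilla genes, CORIN was among the 15 largest rises named by rule. Of 25 tested, 5 rose (CORIN, SCUBE3, RSPO4, WIF1 and TBX18), 0 fell and 20 did not pass, with a median of 0.28, and of 0.17 without ram 835507. CORIN, a serine protease expressed by the papilla, had 1.28, 0.653, 0.555 and 0.485 CPM at the base and 8.75, 9.49, 2.91 and 9.2 CPM at the tip. Ram 871784 had the lowest tip value, yet it too was above all base values (3.25 ± 0.42, SE, adjusted p = 0.00174). SCUBE3, a secreted protein that the papilla makes in growing follicles, had 6.58, 11, 12.6 and 19.4 CPM at the base and 15.4, 47.0, 47.0 and 48.6 CPM at the tip, so that 3 tips shared nearly 1 level and the tip of ram 835507 was lower (1.63 ± 0.19, SE, adjusted p = 0.00117). With any 1 ram left out, both kept an adjusted p of at most 0.0242. The summed level of the list changed by -0.04, -0.10, 0.16 and 0.29 on the log2 scale in the 4 rams, without a common direction.

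Genes of the Wnt pathway rose singly, not as a list. Of 34 ligands, Frizzled receptors, R-spondins and LGR receptors, 2 rose and 0 fell (median 0.04), and of 23 antagonists and targets 2 rose and 0 fell (median 0.00). LGR6, an R-spondin receptor of follicle stem cells, had 5.16, 1.44, 1.6 and 2.18 CPM at the base and 11.7, 7.41, 6.52 and 9.49 CPM at the tip, without overlap (1.84 ± 0.29, SE, adjusted p = 0.00537). RSPO4, an R-spondin ligand that such receptors bind, rose from 0.587 ± 0.42 to 1.89 ± 0.704 CPM (SD, n = 4, adjusted p from edgeR = 0.0487). The antagonists DKK2, from 14.8 ± 5.76 to 30.4 ± 11.3 CPM, and WIF1, from 19.7 ± 1.64 to 34.4 ± 8.06 CPM (SD, n = 4), rose as well. Ligand-side and inhibitor genes thus both stood among the rises. WNT4, a ligand, had a log2 fold change of 1.25 (adjusted p = 0.0655), and SFRP4, a secreted antagonist, had 23.8, 70.1, 62.5 and 8.29 CPM at the base and 7.33, 7.25, 4.64 and 8.67 CPM at the tip (-2.31, adjusted p = 0.0562), with ram 871932 alone not lower. LGR6 kept an adjusted p of at most 0.049 with any 1 ram left out, and those of RSPO4, DKK2 and WIF1 reached 0.169, 0.133 and 0.268.

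The hedgehog list showed a lower ligand and a higher carrier. Of 16 tested genes 1 rose, 1 fell and 14 did not pass (median 0.14). SHH, the ligand made by follicle matrix cells, fell from 1.28, 1.68, 1.88 and 4.25 CPM to 0.166, 0.664, 1.45 and 0.784 CPM (-1.66 ± 0.40, SE, adjusted p = 0.0478). It was lower at the tip within each ram, although the ranges overlapped between rams. SCUBE2, which helps to release the lipid-bound ligand, rose from 31.6, 11.7, 14.3 and 18.4 CPM to 69.5, 26.7, 26.3 and 31.5 CPM (0.99 ± 0.14, SE, adjusted p = 0.00284). SCUBE2 kept an adjusted p of at most 0.0235 with any 1 ram left out, whereas that of SHH reached 0.329 without ram 871932.

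Other signalling families changed little. Of 38 BMP and TGF-beta genes, 1 rose (INHBA, an activin subunit, from 27.8 ± 1.93 to 42.5 ± 11.9 CPM) and 1 fell (CHRDL1, a BMP antagonist, from 64.4 ± 34.9 to 27.9 ± 15.2 CPM, SD, n = 4), and the median was 0.02. Of 26 FGF ligands, receptors and feedback genes 0 passed (median 0.01). FGF5, which ends the growth phase of the follicle, had 9.71, 17.4, 14.3 and 11.2 CPM at the base and 1.29, 5.42, 11.6 and 7.01 CPM at the tip, lower in each ram but with an adjusted p of 0.0603 (-1.32). Among 45 semaphorins, plexins, ephrins, netrins and slits, 3 rose and 2 fell (median -0.04). ROBO2 and UNC5C, axon guidance receptors, rose from 7.67 ± 2.45 to 17.5 ± 3.55 CPM and from 0.69 ± 0.11 to 2.18 ± 0.733 CPM (SD, n = 4), each without overlap, and SEMA6D rose by 0.98 on the log2 scale. NRP2, a semaphorin coreceptor, fell from 129 ± 32.1 to 79.9 ± 25.6 CPM (SD, n = 4), and NTN4, a netrin, from 15.3 ± 4.09 to 8.33 ± 1.09 CPM (SD, n = 4). None of these genes kept an adjusted p under 0.05 in all 4 fits that left out a ram. SEMA6D and NTN4 were chosen after their values were seen.

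The wool follicle lists depended on ram 835507. Of 19 wool shaft keratins and follicle differentiation genes, 0 rose, 1 fell and 18 did not pass, and the median log2 fold change of -0.61 became 0.24 with ram 835507 left out. Summed, the list changed by -3.60, 0.35, 0.69 and 0.00 on the log2 scale in the 4 rams. The 12 inner root sheath genes had 0 rises, 2 falls and a median of -0.92, which became -0.09 without that ram, and their sum changed by -3.38, 0.12, 0.17 and -0.39. KRT26, an inner root sheath keratin, illustrates the pattern with 183, 273, 333 and 409 CPM at the base and 11.5, 144, 292 and 184 CPM at the tip (-1.55, adjusted p = 0.0849). FOXN1 had a log2 fold change of -0.75 with all rams (adjusted p = 0.445) and of 0.02 without ram 835507.

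A few follicle genes nevertheless fell in every ram. K38, a hair keratin, had 4.37, 156, 246 and 192 CPM at the base and 0.0663, 40.5, 28.4 and 8.75 CPM at the tip. Its level in ram 835507 was low at both ends, but the log2 fold change stayed at -3.20 without that ram (-3.51 ± 0.44 with it, SE, adjusted p = 0.00174). KRTAP6-1, a high-glycine-tyrosine keratin-associated protein of the wool shaft, had 216, 329, 193 and 245 CPM at the base and 46.8, 93.6, 78.1 and 94.6 CPM at the tip, without overlap (-1.69 ± 0.33, SE, adjusted p = 0.0196). CUX1, a transcription factor of the root sheath, fell from 169, 229, 291 and 325 CPM to 54.0, 137, 211 and 139 CPM (-1.02 ± 0.17, SE, adjusted p = 0.00655), and PADI4, a peptidylarginine deiminase, from 6.84, 12.2, 21.3 and 28.0 CPM to 0.762, 7.41, 13.6 and 10.1 CPM (-1.41 ± 0.30, SE, adjusted p = 0.0281). The adjusted p of KRTAP6-1, CUX1 and PADI4 reached 0.0787, 0.0623 and 0.165 with 1 ram left out, and that of K38 0.0242. GNG4, a G protein subunit, and ECRG4, a secreted peptide precursor, also fell in all 4 rams, from 219.6 ± 70.0 to 115 ± 91.7 CPM and from 14.8 ± 4.48 to 4.87 ± 2.89 CPM (SD, n = 4), and were chosen after their values were seen. With 1 ram left out, the adjusted p of ECRG4 stayed at or under 0.049 and that of GNG4 reached 0.124, and without ram 835507 GNG4 was at -0.88 (adjusted p = 0.0503).

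On chromosome 1, between positions 125419452 and 126092464, LOC101104027 and LOC114118004, which lie between TIAM1 and KRTAP6-1, also fell. A 4th gene of this stretch, LOC101115849, rose instead, from 0.618, 1.49, 1.73 and 1.38 CPM to 0.265, 14.1, 11.1 and 25.9 CPM (2.89 ± 0.69, SE, adjusted p = 0.047). It was lower at the tip in ram 835507, its adjusted p was 0.308 without ram 871932, and it was chosen after its values were seen. LOC101104027 had 909.6, 1614, 903 and 1349 CPM at the base and 79.8, 472, 508 and 592 CPM at the tip, and LOC114118004 had 809.5, 1348, 962 and 1338 CPM at the base and 89.3, 443, 506 and 527 CPM at the tip. LOC101104027 and LOC114118004 were lower in every tip than in every base, with log2 fold changes of -1.87 ± 0.36 and -1.78 ± 0.31 (SE, adjusted p = 0.0178 and 0.00959). Without ram 835507 these were -1.27 and -1.29, with adjusted p-values of 0.0374 and 0.0214. Without ram 871772 the adjusted p was 0.0619 for LOC101104027, and that of LOC114118004 stayed at or under 0.0402 in all 4 such fits. Genes of such families are alike in sequence, and how the counting split reads between copies was not tested.

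Epidermal differentiation genes pointed the other way. Of 25 tested, 3 rose (KRT1, KRT2 and ALOX12B), 0 fell and 22 did not pass, 19 had a positive log2 fold change, and the median was 0.40, which became 0.75 without ram 835507 and 0.20 without ram 871772 or ram 871932. The summed level changed by -0.17, 1.96, 0.49 and 1.43 on the log2 scale, so that ram 835507, which started from the highest base sum, was the exception. KRT1 had 9214, 3355, 2345 and 3142 CPM at the base and 9693, 17208, 5752 and 14243 CPM at the tip (1.45 ± 0.34, SE, adjusted p = 0.0418). KRT2, the type II keratin of the upper epidermis, had 569, 139, 24.7 and 209 CPM at the base and 489, 6931, 322 and 3586 CPM at the tip (3.25 ± 0.78, SE, adjusted p = 0.0483). ALOX12B, a lipoxygenase of barrier lipids, rose from 12.8 ± 3.54 to 27.9 ± 9.65 CPM (SD, n = 4).

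The 3 keratin genes KRT78, KRT1 and KRT2, which all rose, lie between 133556701 and 133740216 on chromosome 3. KRT78 had 25.6, 21.5, 12.5 and 26.1 CPM at the base and 36.7, 57.5, 18.8 and 55.6 CPM at the tip. LOC101120378, which lies between TCHHL1 and FLG on chromosome 1, where epidermal barrier genes are clustered, had 1106, 338, 285 and 281 CPM at the base and 1152, 1383, 512 and 1335 CPM at the tip (1.32 ± 0.32, SE, adjusted p = 0.0493). Ram 835507 was again the one with little change. SERPINB7, a serine protease inhibitor of the epidermis, rose from 9.94 ± 5.54 to 27.6 ± 14.1 CPM (SD, n = 4). Without ram 871932 the adjusted p-values were 0.268 for KRT1, 0.233 for KRT2, 0.268 for ALOX12B, 0.244 for KRT78, 0.324 for LOC101120378 and 0.306 for SERPINB7. Of 14 basal keratinocyte and 15 outer root sheath genes 0 passed, with medians of 0.30 and 0.22, which were 0.38 and 0.35 without ram 835507. KRT78 and SERPINB7 were chosen after their values were seen.

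Cell cycle genes were lower at the tip in nearly every case, by small amounts. Of 32 tested, 2 fell (AURKA and KIF20A), 0 rose and 30 did not pass, and 1 had a positive log2 fold change. The median was -0.59, and -0.34 without ram 835507, and the sum was lower at the tip in all 4 rams, by 1.2, 0.44, 0.19 and 0.44 on the log2 scale. AURKA, a mitotic kinase, had 4.06, 8.44, 8.11 and 9.95 CPM at the base and 2.09, 5.15, 4.79 and 4.21 CPM at the tip (-0.92 ± 0.16, SE, adjusted p = 0.0102). KIF20A, a kinesin of cytokinesis, had 20.8, 30.8, 32.5 and 36.9 CPM at the base and 6.13, 23.1, 25.8 and 26.4 CPM at the tip (-0.74 ± 0.18, SE, adjusted p = 0.0498), and its log2 fold change was -0.40 without ram 835507 (adjusted p = 0.145). UBE2C, a ubiquitin-conjugating enzyme of mitosis, had a log2 fold change of -0.84 (adjusted p = 0.0801). UHRF1, which maintains DNA methylation in dividing cells, and LMNB1, a nuclear lamin, fell from 45.8 ± 22.9 to 26.8 ± 14.2 CPM and from 85.5 ± 16.4 to 52.1 ± 22.5 CPM (SD, n = 4). Without ram 835507 the adjusted p was 0.151 for UHRF1 and 0.122 for LMNB1, and without ram 871932 it was 0.272 for UHRF1, 0.153 for LMNB1 and 0.109 for AURKA. UHRF1 and LMNB1 were chosen after their values were seen. The follicle sums given above moved with these values in ram 835507, and their part in the result was not tested.

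Glands and lipid metabolism showed few changes. Of 23 sebaceous gland genes 1 fell (FADS2) and 0 rose (median 0.00), of 21 sweat gland genes 0 passed (median 0.19), and of 19 adipocyte genes 0 passed (median -0.04, and -0.36 without ram 835507). Of 25 fatty acid synthesis and elongation genes 1 fell, again FADS2 (median 0.04), and of 27 fatty acid activation and oxidation genes 2 fell (median -0.10). FADS2, a desaturase that makes polyunsaturated fatty acids, went from 4.72, 11.4, 14.3 and 19.8 CPM to 1.16, 6.25, 7.73 and 5.03 CPM (-1.41 ± 0.25, SE, adjusted p = 0.0108, and 0.124 without ram 871932). SOAT1, the cholesterol acyltransferase, had 673, 64.5, 148 and 46.4 CPM at the base and 679, 177, 178 and 138 CPM at the tip, and it did not pass (0.80, adjusted p = 0.115).

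The acyl-CoA synthetases ACSM2B and ACSM1 lie side by side on chromosome 24, between 18630445 and 18763346, and both fell. ACSM2B was high in ram 835507 alone, at 53.7, 0.326, 1.08 and 0.809 CPM at the base and 4.28, 0.083, 0.142 and 0 CPM at the tip. It was lower at the tip in each ram (-3.42 ± 0.66, SE, adjusted p = 0.0176), and without ram 835507 the value was -3.24 with an adjusted p of 0.145. ACSM1 had 301, 34.5, 73.9 and 49.4 CPM at the base and 260.1, 19.4, 34.3 and 16.9 CPM at the tip (-0.95 ± 0.23, SE, adjusted p = 0.0464, and 0.316 without ram 871932). Of 24 lipoxygenases and prostaglandin enzymes 1 rose, ALOX12B, and 0 fell (median -0.17).

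Of 21 genes of the IGF and insulin axis, 2 fell and 0 rose (median 0.04). IGF2BP2, which binds the IGF2 mRNA, had 22.5, 12.1, 21.2 and 27.2 CPM at the base and 5.54, 1.63, 5.78 and 1.57 CPM at the tip (-2.69 ± 0.31, SE, adjusted p = 0.00117). The groups were well apart, and the adjusted p stayed at or under 0.00849 whichever ram was left out. STC1, stanniocalcin, fell from 24.2 ± 9.43 to 12.4 ± 2.94 CPM (SD, n = 4), with an adjusted p of 0.0284, which reached 0.14 without ram 871932.

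Glucocorticoid target genes had lower values at the tip in all but 1 case. Of 18 tested 2 fell, 0 rose and 16 did not pass, 1 had a positive log2 fold change, the median was -0.36, and the sum was lower at the tip in all 4 rams, by 0.59, 0.50, 0.22 and 0.53 on the log2 scale. FKBP5, a cochaperone of the glucocorticoid receptor and one of its strongest targets, had 304, 604, 315 and 228 CPM at the base and 151, 71.1, 187 and 49.7 CPM at the tip (-1.83 ± 0.39, SE, adjusted p = 0.0298). No tip reached a base. CRISPLD2, a secreted target of the receptor, fell from 156 ± 38.7 to 95.1 ± 32.5 CPM (SD, n = 4, adjusted p from edgeR = 0.0319). PDK4, a kinase that restrains pyruvate oxidation, had 120.5, 212, 86.3 and 69.2 CPM at the base and 55.5, 45.1, 59.0 and 7.34 CPM at the tip, also without overlap, but did not pass (-1.69, adjusted p = 0.0614). Without ram 871932 the adjusted p of FKBP5 was 0.208 and that of CRISPLD2 0.144.

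A few genes of macrophages and of eosinophil recruitment fell at the tip. Of 20 macrophage and dendritic cell genes 3 fell, 0 rose and 17 did not pass, 5 had a positive log2 fold change, and the median was -0.23, and -0.41 without ram 835507. CD14, the lipopolysaccharide coreceptor of monocytes, had 10.6, 18.7, 15.9 and 9.46 CPM at the base and 6.9, 6.86, 6.56 and 5.49 CPM at the tip, without overlap (-1.07 ± 0.24, SE, adjusted p = 0.0369). C1QC, a complement component of macrophages, fell from 14 ± 3.06 to 6.43 ± 2.01 CPM, and FOLR2, a folate receptor of resident macrophages, from 4.45 ± 1.23 to 2.36 ± 0.451 CPM (SD, n = 4), also without overlap. LYVE1, a hyaluronan receptor of lymphatic endothelium and of resident macrophages, had 20, 57.6, 35.8 and 12.9 CPM at the base and 18.6, 7.69, 3.76 and 3.05 CPM at the tip (-2.23 ± 0.46, SE, adjusted p = 0.0254). It was the 1 member of 10 lymphatic genes that passed, and the median of that list was -0.01. With 1 ram left out, the adjusted p reached 0.127 for CD14, 0.122 for C1QC, 0.134 for FOLR2 and 0.136 for LYVE1.

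Of 17 mast cell, eosinophil and histamine genes 3 fell, 0 rose and 14 did not pass (median -0.29, -0.59 without ram 835507 and 0.02 without ram 871772). AOC1, the diamine oxidase that degrades histamine, had 8.96, 22, 20.3 and 6.23 CPM at the base and 1.49, 0.138, 0.248 and 0.743 CPM at the tip (-4.77 ± 0.81, SE, adjusted p = 0.00856). CCL26 and CCL24, the eotaxins that attract eosinophils, lie together on chromosome 24 between 34486612 and 34525773. CCL26 had 14.3, 10.1, 8.76 and 9.38 CPM at the base and 6.07, 0.443, 0.957 and 0.619 CPM at the tip (-3.20 ± 0.46, SE, adjusted p = 0.00284), and CCL24 had 3.93, 4.38, 4.13 and 2.31 CPM at the base and 2.52, 0.498, 0.319 and 0.825 CPM at the tip (-2.19 ± 0.46, SE, adjusted p = 0.0268). Ram 835507 kept the highest tip value of all 3 genes. The members that fell are an enzyme and ligands, not markers of mast cells themselves. AOC1 and CCL26 kept an adjusted p of at most 0.0482 and 0.0321 with any 1 ram left out, and that of CCL24 reached 0.108.

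The chemokine list held changes in both directions. Of 35 chemokines and receptors 1 rose, 3 fell and 31 did not pass (median -0.09). The sum was higher at the tip in all 4 rams, from 952, 770, 646 and 589 CPM to 1500, 1032, 727 and 957 CPM. CXCL14, an abundant chemokine of epithelium and papilla fibroblasts, rose from 544, 416, 322 and 276 CPM to 1044, 659, 415 and 616 CPM (0.78 ± 0.17, SE, adjusted p = 0.0319). This gene alone was a large part of the sum, and the sum without it is not given. CCL27, a keratinocyte chemokine for skin-homing T cells, fell from 31.1, 20.9, 33.3 and 32.0 CPM to 14.7, 11.4, 22.2 and 11.6 CPM (-1.0 ± 0.20, SE, adjusted p = 0.0228). IL17RB, the receptor of interleukin 25, fell from 2.47, 1.4, 1.85 and 3.15 CPM to 1.13, 0.194, 0.461 and 0.495 CPM, without overlap (-2.24 ± 0.48, SE, adjusted p = 0.0283). Without ram 871932 the adjusted p-values were 0.219, 0.171 and 0.12.

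Of 19 interferon-stimulated genes 16 had a positive log2 fold change and the median was 0.51, but 1 rose (IFIT3, from 6.92 ± 3.03 to 11.2 ± 4.71 CPM, SD, n = 4) and 18 did not pass. The adjusted p of IFIT3 was 0.0355, and 0.203 without ram 871932. Of 21 innate defence genes 1 fell, which was CD14, and 0 rose (median 0.38). PGLYRP1, a peptidoglycan recognition protein, had 1.9, 7.41, 3.79 and 3.11 CPM at the base and 1.99, 43.0, 9.71 and 14.4 CPM at the tip (1.64, adjusted p = 0.0519). Of 22 T, NK, B and plasma cell genes and 4 red blood cell genes 0 passed, with medians of -0.10 and -0.07. Without ram 835507 the former was -0.15.

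Nerve, pigment, vessel and muscle lists held few genes that passed. Of 21 neuropeptide and neuron genes 1 rose and 1 fell (median 0.10, and 0.27 without ram 835507), and the sum was higher at the tip in all 4 rams. STMN2, a microtubule regulator of growing axons, had 7.28, 8.39, 3.05 and 4.45 CPM at the base and 26.2, 18.1, 17.1 and 14.3 CPM at the tip, without overlap (1.79 ± 0.26, SE, adjusted p = 0.00284, and at most 0.0207 with any 1 ram left out). SNAP25, of the synaptic vesicle machinery, fell from 2.23 ± 0.673 to 0.888 ± 0.646 CPM (SD, n = 4, adjusted p from edgeR = 0.0411), and passed in 0 of the 4 fits that left out a ram (highest adjusted p 0.121). NTS, neurotensin, had 0.309, 0, 0.123 and 0 CPM at the base and 0.398, 2.05, 2.69 and 1.94 CPM at the tip (adjusted p = 0.0613). Of 20 Schwann cell and myelin genes 1 fell (median -0.04, and -0.20 without ram 835507). This was OMG, a myelin glycoprotein, with 25.1, 18.9, 5.52 and 80.4 CPM at the base and 4.48, 3.98, 2.69 and 5.53 CPM at the tip (-2.49 ± 0.38, SE, adjusted p = 0.00371, and at most 0.0248 with any 1 ram left out).

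The 18 melanocyte and pigment genes had a median of -0.59, and 2 were positive, but 0 passed. The median was -0.20 without ram 871932. TYR, tyrosinase, was at 6.75 CPM at the base of that ram against 0.177 to 0.373 CPM at the other bases, and MLANA, a melanosome protein, was at 3.76 CPM against 0 to 0.0308 CPM. Of 19 smooth muscle and pericyte genes 0 passed and 16 were positive, with a median of 0.37, which became 0.06 without ram 835507. ACTG2, a smooth muscle actin, had 59.4, 63.6, 55.2 and 66.1 CPM at the base and 289, 147, 67.2 and 135 CPM at the tip (1.18, adjusted p = 0.0968). Of 16 skeletal muscle and 26 endothelial genes 0 passed (medians 0.19 and 0.12, which were 0.07 and -0.13 without ram 835507). The remaining lists had 0 genes past the test, with medians of -0.09 for 28 immediate early genes, -0.10 for 20 heat shock and cold-inducible genes, 0.33 for 19 circadian clock genes, of which 16 were positive, and -0.16 for 39 ribosomal protein genes, of which 3 were positive.

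**Figure D4:**
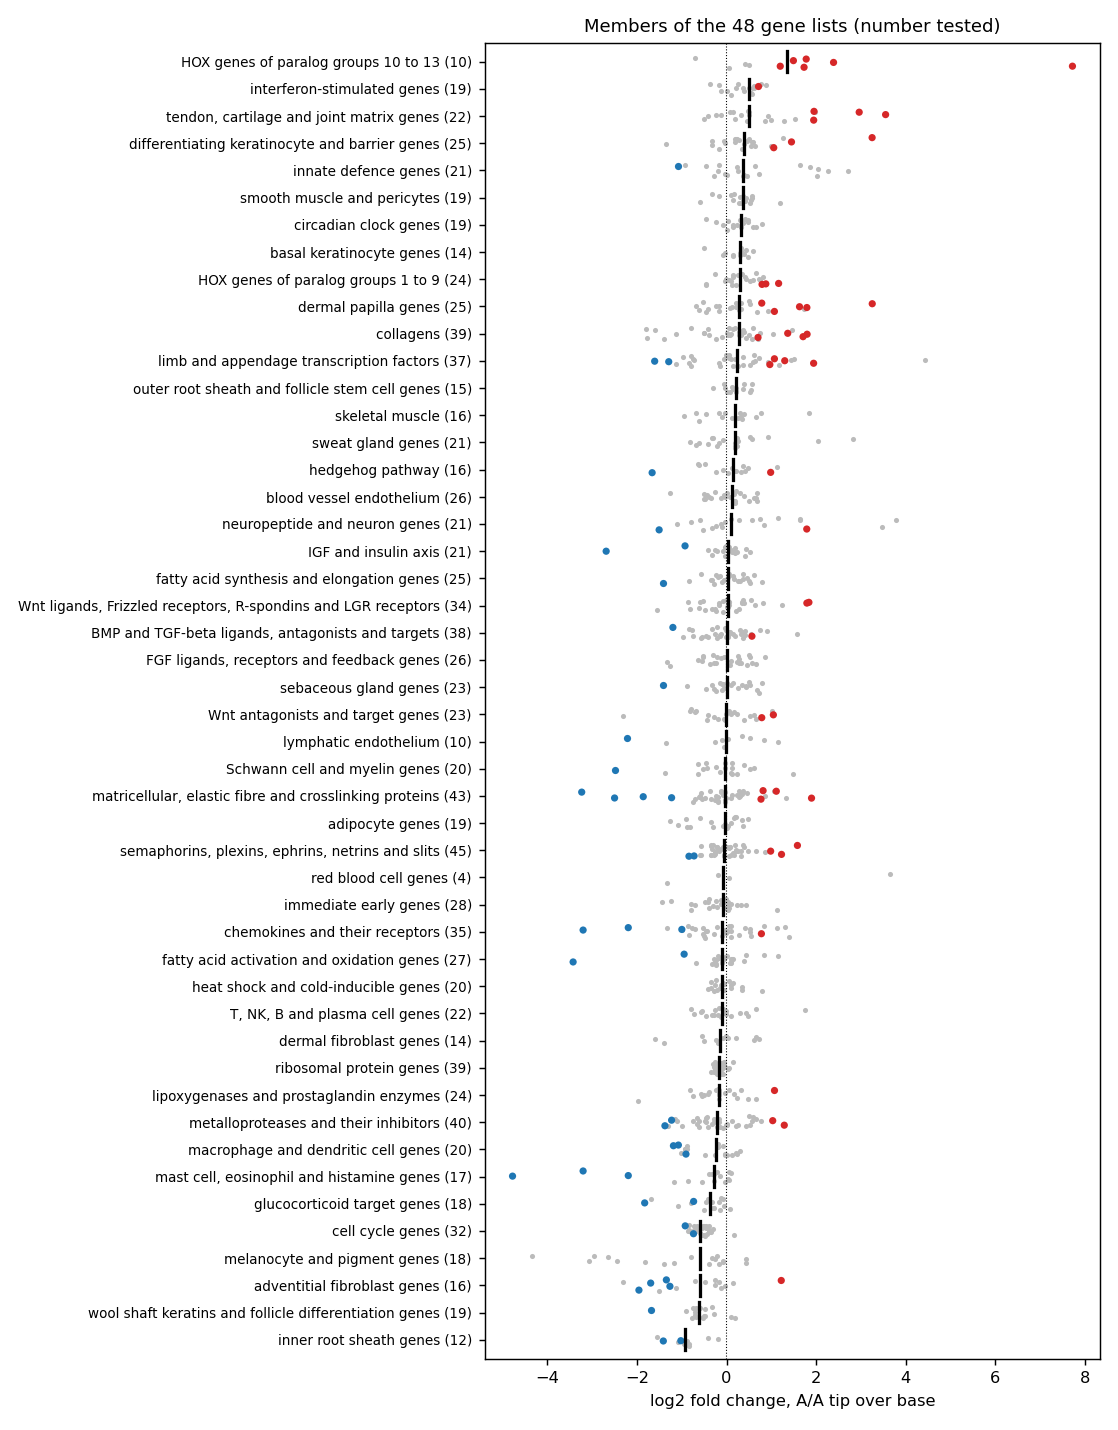
Log2 fold change of the A/A tip over the base for the tested members of 48 gene lists (number tested in brackets), ordered by the list median (black bars). Red and blue points rose and fell, grey points did not pass, and most lists straddle 0 with a few coloured members at their ends.

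Some of the largest changes belonged to none of the tissue lists. CYP1A1, a xenobiotic-metabolising P450 enzyme induced through the aryl hydrocarbon receptor, had 0.353, 0.0466, 0.216 and 0.243 CPM at the base and 25.1, 0.083, 2.13 and 3.18 CPM at the tip (4.36 ± 0.86, SE, adjusted p = 0.0207), so that ram 871772 hardly changed. Without ram 835507 the log2 fold change was 3.18 (adjusted p = 0.101). RBP2, a cellular retinol-binding protein, had 0.132, 0.28, 0 and 0.809 CPM at the base and 0.365, 4.54, 0.567 and 8.54 CPM at the tip (3.71 ± 0.66, SE, adjusted p = 0.0108). AMELX, the enamel protein amelogenin, had 0.177, 0.699, 1.39 and 2.67 CPM at the base and 0.265, 5.59, 18.5 and 26.8 CPM at the tip (3.18 ± 0.48, SE, adjusted p = 0.00371), with little change in ram 835507. The adjusted p of RBP2 and AMELX reached 0.0854 and 0.0653 without ram 871932.

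ADAMDEC1, a metalloprotease-like protein of tissue macrophages and stromal cells, was nearly confined to ram 835507, with 3.58, 0.28, 0.154 and 0.283 CPM at the base and 64.0, 1.08, 0.39 and 0.495 CPM at the tip. Its log2 fold change of 2.90 ± 0.62 (SE, adjusted p = 0.0284) was 1.36 without that ram (adjusted p = 0.193). DMRT2, a DM-domain transcription factor, rose from 0.874 ± 0.405 to 5.5 ± 3.2 CPM (SD, n = 4, adjusted p from edgeR = 0.0283). P2RX1, an ATP-gated ion channel, had 2.78, 0.559, 0.494 and 3.15 CPM at the base and 27.5, 3.29, 2.02 and 6.48 CPM at the tip (2.27 ± 0.36, SE, adjusted p = 0.00464). MAP6, a microtubule-stabilising protein, rose from 0.599 ± 0.19 to 2.52 ± 1.06 CPM, and MAP3K15, a stress kinase, from 0.396 ± 0.123 to 2.03 ± 1.9 CPM (SD, n = 4). PTHLH, parathyroid hormone-like hormone, a paracrine regulator of skin and follicle, rose from 2.38, 2.05, 2.1 and 2.87 CPM to 5.27, 4.59, 4.82 and 5.61 CPM, with little spread in either group (1.12 ± 0.20, SE, adjusted p = 0.0108). LAMA2, a laminin chain, rose from 55.6 ± 22.7 to 105 ± 40.0 CPM (SD, n = 4). P2RX1 kept an adjusted p of at most 0.0329 with any 1 ram left out, and those of DMRT2, MAP6, MAP3K15, PTHLH and LAMA2 reached 0.2, 0.0594, 0.183, 0.0653 and 0.153. PTHLH and LAMA2 were chosen after their values were seen.

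Among the falls outside the lists, RNASE9 and RNASE12, secreted ribonuclease A family genes, lie near each other on chromosome 7. RNASE9 had 9.71, 0.14, 0.555 and 1.74 CPM at the base and 0.431, 0.0277, 0.0354 and 0 CPM at the tip (-4.50 ± 0.66, SE, adjusted p = 0.00453), and RNASE12 fell from 1.29 ± 1.11 to 0.189 ± 0.134 CPM (SD, n = 4). CLIC6, a chloride channel protein, had 185 reads at the base and 1 read at the tip over the 4 rams, a base over tip ratio of 213 after scaling for depth with a 95% counting interval of 37.8 to 8466. Its base values were 0.795, 1.54, 0.247 and 5.1 CPM. FABP7, a fatty acid-binding protein, fell from 2.3, 4.85, 6.91 and 17.4 CPM to 1.06, 0.83, 2.02 and 0.743 CPM (-2.57 ± 0.52, SE, adjusted p = 0.0229). ENPEP, an angiotensin-cleaving aminopeptidase, fell from 2.51 ± 1.29 to 0.498 ± 0.178 CPM, and SYNDIG1, a regulator of synapse formation, from 2.77 ± 1.91 to 0.621 ± 0.606 CPM (SD, n = 4). CLIC6 and ENPEP kept an adjusted p of at most 0.00584 and 0.0496 with any 1 ram left out, and those of RNASE9, RNASE12, FABP7 and SYNDIG1 reached 0.0521, 0.308, 0.153 and 0.153. RNASE12 and CLIC6 were chosen after their values were seen.

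Some of the genes that passed the test were neighbours. Of the 317 genes, all with a position in the RefSeq table, 78 lay in 30 stretches of 2 or more whose starts were within 500 kb of the next, and in 17 of these stretches all genes moved in 1 direction. The same counts were not made for other sets of the genes tested. They therefore do not show that genes past the test cluster, or share a direction, more than others. On chromosome 14 between 44523818 and 44774671, 4 unnamed coding genes that lie between WTIP and ZNF599 rose. LOC101120353 had 0.0441, 0.419, 2.87 and 0.485 CPM at the base and 0.0663, 30.5, 14.2 and 17.9 CPM at the tip, and LOC101113168 had 0.971, 12.3, 1.85 and 5.5 CPM at the base and 4.81, 82.8, 7.48 and 55.3 CPM at the tip. LOC101113693 was higher at the tip in each ram, from 0.265, 7.13, 35.0 and 6.83 CPM to 2.35, 21.8, 53.5 and 25.2 CPM. LOC105607568 was counted almost wholly in ram 871784, at 14.4 CPM at the base and 74.3 CPM at the tip against at most 0.0553 CPM in the other rams, and its adjusted p of 0.0225 became 0.575 without that ram. Without ram 871932 the adjusted p was 0.0982 for LOC101120353 and 0.148 for LOC101113693, and that of LOC101113168 stayed at or under 0.049.

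On chromosome 5 between 14295295 and 14324750 a pair of unnamed genes fell steeply. LOC101123627 had 5.56, 5.55, 7.06 and 5.14 CPM at the base and 1.16, 0.387, 0.603 and 0.454 CPM at the tip (-3.33 ± 0.43, SE, adjusted p = 0.00174), and LOC101102057 had 10.5, 27.4, 16.2 and 6.88 CPM at the base and 1.13, 0.719, 0.496 and 1.03 CPM at the tip (-4.21 ± 0.55, SE, adjusted p = 0.00176). Both were far apart between tip and base and kept an adjusted p of at most 0.0242 with any 1 ram left out. The unnamed genes of these stretches were chosen after their values were seen.

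Tips of the 3 D/D rams, which share no sample with the A/A rams, were compared with their own bases in the same fit. There 23 genes rose (0.118%) and 87 fell (0.447%). Of the 164 genes that rose in A/A, 143 (87.2%) had a positive log2 fold change in D/D, where 48.4% of all tested genes did, with a median of 0.66, and 11 of them also rose. Of the 153 genes that fell in A/A, 152 (99.3%) had a negative one, where 51.6% of all tested genes did, with a median of -1.09, and 40 of them also fell. No gene passed in opposite directions at the tips, and 51 passed at both. Among the lists, the adventitial list had 3 falls and a median of -0.83 in D/D (4 falls, 1 rise and -0.60 in A/A), the tendon and cartilage list 1 rise and 0.22 (4 rises and 0.51), the macrophage list 1 fall and -0.81 (3 falls and -0.23), the cell cycle list 0 changes and -0.06 (2 falls and -0.59), and the wool shaft list 0 changes and 0.54 (1 fall and -0.61).

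**Figure D5:**
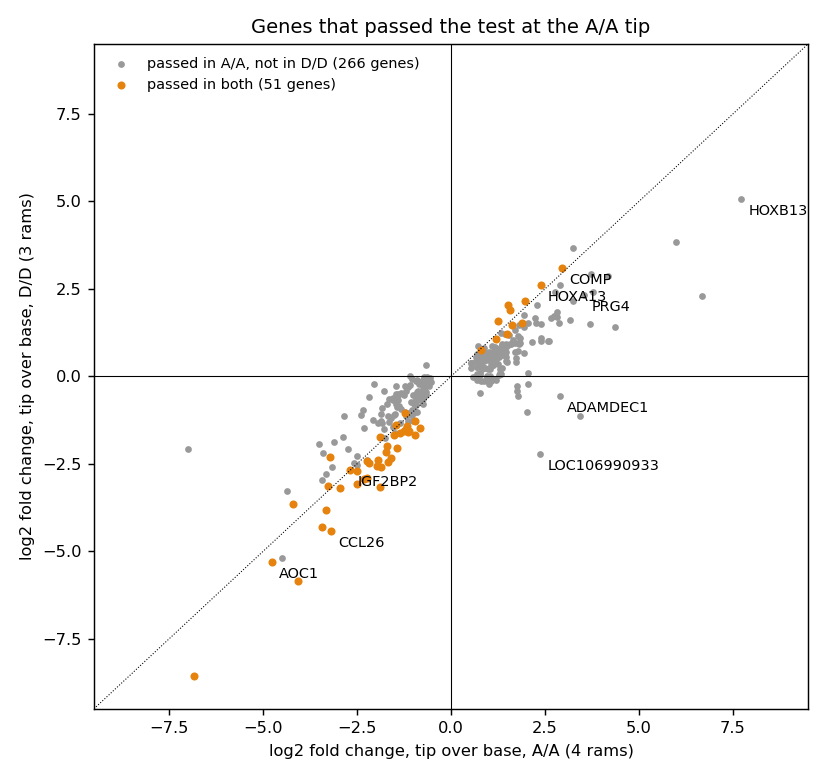
Log2 fold change of tip over base in D/D rams (vertical axis, n = 3) against A/A rams (horizontal axis, n = 4) for the 317 genes that passed in A/A, with the dotted line marking equal change. Orange points are the 51 genes that passed in both and grey points the 266 that passed in A/A and not in D/D, most of which lie in the same quadrant as the orange ones.

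The values of single genes were set side by side. For AOC1 the log2 fold change was -4.77 in A/A rams and -5.30 in D/D rams (adjusted p = 0.0192), CCL26 -3.20 and -4.42 (0.0034), IGF2BP2 -2.69 and -2.68 (0.0034), LOXL4 -3.23 and -2.31 (0.0336), MATN4 -2.50 and -3.06 (0.0034), and TNXB -1.86 and -2.59 (0.0101). COMP had 2.96 and 3.10 (0.0336), HOXA13 2.39 and 2.61 (0.00758), SCUBE3 1.63 and 1.47 (0.00758), TNC 1.90 and 1.52 (0.0361), and MAP6 1.96 and 2.14 (0.0261). Other genes that rose in A/A were close to 0 in D/D, among them CXCL14 (0.78 and 0.10), DKK2 (1.05 and 0.01), TWIST1 (0.97 and -0.01), MMP7 (1.29 and 0.03) and LOC105608416 (1.06 and -0.03), the last 4 with adjusted p-values of at least 0.971 in D/D.

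The difference between the genotypes was tested itself, as an interaction term. With edgeR 0 of 19444 genes had an adjusted p under 0.05 and 1188 an unadjusted one, DESeq2 on the same ram sums gave 15 and limma-voom 0. A gene that passed in A/A and not in D/D is therefore not shown to differ between them by the main test. The genes with the smallest p of the interaction included LOC106990933, with 2.38 at the A/A and -2.21 at the D/D tip on the log2 scale, CCDC180, a coiled-coil protein, with 1.44 and -2.18, ADAM28, a membrane metalloprotease, with -0.33 and -2.49, N4BP2L1 with 0.50 and -0.55, and GPR158, an orphan receptor, with 0.94 and -1.61. Of these, LOC106990933 rose at the A/A tip (adjusted p = 0.0462, and 0.209 without ram 871932) and ADAM28 fell at the D/D tip (adjusted p = 0.0034), and LOC106990933 was at 0 to 0.278 CPM at the A/A base and 0.166 to 1.82 CPM at the tip, which rests on few reads.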

How the data were processed

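RNA selected on oligo(dT) beads was made into libraries with the CorALL kit. The authors checked the reads with FastQC 0.11.9, mapped them with ContextMap over BWA on the sheep assembly ARS-UI_Ramb_v3.0, and took strand-specific counts for RefSeq genes from featureCounts, whose version is not given in the sources used here. Raw counts were deposited for 31182 genes. LOC symbols stood for 12203 of these, 4594 had no read, and 0 columns were left out. The 14 tip columns were entered as estimated counts only because of their column names, although the authors deposited whole counts there too, and rounding changed nothing. Coordinates of 28742 genes came from the NCBI RefSeq table of the same build. Promoter and protein sequences were not used here.

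Adding up the 41 libraries by ram and position gave 21 ram sums, and each ram entered a comparison once. All positions and both genotypes were fitted together in R 4.3.3 by edgeR 4.0.16 (quasi-likelihood test), with TMM scaling, the low-count filter of edgeR (19444 genes left) and the ram as a block, which left 10 residual degrees of freedom. Adjusted p-values are from Benjamini-Hochberg over all genes tested. The SE printed with a log2 fold change was derived from that change and the F statistic of its test. It restates the test and is not a separate measure of the spread between the 4 rams. The ram pairs base and tip, since both came from the same animal. The deviations of base and tip from their group means correlated at 0.632, 0.253, 0.54 and 0.294 in the 4 rams. Between libraries of the same ram and position the correlation was 0.893 to 0.985, against 0.795 to 0.967 between rams. Differences of list sums are log2 ratios of summed CPM. Ratios of genes with 3 reads or fewer at 1 end have exact counting intervals of 95%, which cover counting error only.

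The members of the 48 gene lists, and the comparison itself, were chosen with earlier results of these data known, and no list was tested as a set. A member left off a list is not reported here. Genes were named by rule, as the 15 largest rises and 15 largest falls among genes with symbols whose mean was 1 CPM or more and whose direction was shared by all 4 rams, the 10 most abundant genes past the test, the 3 members of each list with the smallest p, and the 5 genes with the smallest p in the difference between genotypes. The alternatives were DESeq2 1.42.0, limma-voom (limma 3.58.1), single libraries, each library number alone, other blocks, scalings, filters and sets of samples, and each ram left out. The fits were checked on simulated counts.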

Additional observations from a re-analysis of the deposited data

Results flagged for a closer look

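Among the 146 genes of the text, each A/A ram was compared with the other 3 at the base and at the tip on the log2 scale. In 30 of 292 such groups a ram stood apart from the others. The nominal rate of this outlier test is about 1 in 20 for independent values. The genes were chosen from these same data and are not independent, so no excess over that rate is read from the count. Ram 835507 was the one apart in 19 of the 30 groups. At the tip it was low for FOXN1 (20.7 CPM), SCUBE3 (15.4), KIF20A (6.13), UBE2C (2.52), UHRF1 (6.36), LOC101104027 (79.8), LOC114118004 (89.3), COL1A1 (443) and COL3A1 (294), and high for ADAMDEC1 (64 CPM), RNASE9 (0.431), ACSM2B (4.28), SP9 (1.36) and SOAT1 (679). At the base it was low for K38 (4.37 CPM) and ECRG4 (8.17) and high for ADAMDEC1 (3.58), ACSM2B (53.7) and LOC101120378 (1106). Ram 871932 was high for TNC (143 CPM) and CLIC6 (0.0413) and low for PDK4 (7.34) at the tip, and at the base it was low for SCARA5 (39.1) and high for TYR (6.75) and MLANA (3.76). Ram 871784 was low for CORIN at the tip (2.91 CPM) and high for LOC105607568 at the base (14.4) and the tip (74.3). Ram 871772 was low for CCL27 (20.9 CPM) and high for EMILIN2 (29.3) at the base.

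For 6 of the 146 genes of the text every A/A ram was higher at the tip and every D/D ram lower. LOC106990933, CCDC180, N4BP2L1 and GPR158 had been named for their small p in the genotype difference, so opposite directions were selected for. LTBP2 and LOC121816955 were chosen after their values were seen, and the share of this pattern over all genes tested is not given. The difference of the log2 fold changes, D/D minus A/A, was -4.59 for LOC106990933, -3.62 for CCDC180, -1.05 for N4BP2L1, -2.55 for GPR158, -1.24 for LTBP2 and -2.17 for LOC121816955. None passed the interaction test of edgeR after adjustment over all genes, so the difference was not called.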

How the results depend on the processing

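The main counts at the A/A tip were 57 genes called strictly and 317 at an adjusted p under 0.05, in a fit with the ram as a paired block. Without the block they were 4 and 18, and on single libraries with the library number as the block in place of the ram 64 and 278. DESeq2 on ram sums gave 295 and 836, and limma-voom 60 and 331. Treating single libraries as replicates gave 328 and 1337 with edgeR and 432 and 1711 with DESeq2. Library number 1 alone gave 19 and 134, and library number 2 alone 0 and 19. A/A samples of all positions fitted alone gave 11 and 80, and A/A tip and base alone 5 and 33, with fewer samples to estimate the spread. No filter on low counts gave 104 and 373. RLE scaling (59 and 316), library totals (51 and 323) and a filter at 1 CPM (54 and 278) changed little. With 1 ram left out the counts ran from 3 to 53 and from 68 to 286, lowest without ram 871932. The genotype difference of 0 genes became 15 with DESeq2 on ram sums, 6 with edgeR on single libraries and 108 with DESeq2 on single libraries, and stayed at 0 in the other alternatives.

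Of the 127 named genes past the test, 0 changed direction in any alternative, and 2 no longer passed with DESeq2, 9 with limma-voom, 114 without the block, and 46, 71, 41 and 85 with ram 835507, 871772, 871784 or 871932 left out. With A/A tip and base alone 103 no longer passed, and with A/A samples of all positions alone 81. Library number 1 alone lost 64, library number 2 alone 111, and the library number as the block 42. List medians moved as follows, and the cause was not tested. With library number 1 alone the fibroblast median was 0.22, the adventitial -0.13 and the ribosomal -0.25, and with library number 2 alone the inner root sheath median was -1.12 and the ribosomal -0.049. Without the ram as a block the wool shaft median was 0.077, the inner root sheath -0.40 and the cell cycle -0.47, and with the library number as the block these were 0.067, -0.42 and -0.46. With 1 ram left out the medians ran from -1.08 to 0.24 for wool shaft, from -1.28 to -0.092 for inner root sheath, from 0.078 to 0.35 for outer root sheath, from 0.14 to 0.38 for basal keratinocytes, from -0.36 to 0.034 for adipocytes, from -0.13 to 0.22 for endothelium, from 0.063 to 0.47 for smooth muscle, from 0.32 to 0.59 for interferon genes, from -0.47 to 0.088 for immediate early genes, from -0.72 to -0.34 for cell cycle genes and from -0.24 to -0.11 for ribosomal genes. Genes below about 1 CPM, which are 3632 of those tested, rest on few reads per library, and 4 rams limit what could be called.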
